A study of Cavia porcellus with 30 samples.

Results

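The livers described here came from the vehicle animals of a study of thioacetamide, a compound used in laboratory animals to injure the liver. They were chosen by their labels, a saline vehicle at 3 ml/kg as the dose and 33 h or 9 h as the duration, and they make up 10 of the 30 libraries of the series. The 33 h group held 5 Hartley guinea pigs given saline and the 9 h group held another 5, each animal giving 1 library of poly-A-enriched liver RNA. All 10 animals had received saline and no thioacetamide. Of the other 20 animals, 10 had a low dose of 25 mg/kg thioacetamide and 10 a high dose of 100 mg/kg, 5 at each time. The times lay 24 h apart, and the labels give neither the clock hour of sampling nor the age of the animals.

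Most of the mass of the liver is hepatocytes, which take up nutrients, detoxify foreign compounds and secrete most of the proteins of blood plasma. The mRNA of a liver is therefore unevenly distributed: a small number of messages for secreted and metabolic proteins are very abundant, and most messages are rare. Liver messages are also known to change with feeding, fasting and the hour of the day, which is why vehicle animals are usually taken at every time of a treatment study.

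Abundance is given in TPM, the estimated count of a transcript divided by its effective length (its length less the room a sequenced fragment needs) and scaled to the same total in every library. Transcripts are called by their identifiers in the deposited tables. Those identifiers matched none of the 37416 genes in the annotation table used here, so no gene name or function is given for any of them, and the tissue label was not checked against liver marker genes. RNA was taken from whole tissue, where fewer cells of a type and less RNA per cell cannot be told apart.

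Library totals lay between 21352824 and 31390908 estimated counts in the 33 h animals and between 23714233 and 33842322 in the 9 h animals. Of 25824 listed transcripts, 16250 were above 0 in all 10 livers, 6243 in some of them and 3331 in none. Pairs of libraries differed by more than counting noise throughout, with a chi-square per degree of freedom of 39.9 to 152 over the 25 pairs of different times and 37.8 to 126 over the 20 pairs of the same time, so no library was counted as a copy of another.

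The vehicle liver transcriptome was concentrated in few transcripts. The 130 transcripts at a mean of 1000 TPM or more over the 10 animals held 61.7% of all TPM and 44.5% of all estimated counts. Another 796 transcripts at 100 to 1000 TPM held 21.5% of TPM, 4585 at 10 to 100 TPM held 13.4%, 7756 at 1 to 10 TPM held 3.21%, and 9226 above 0 but under 1 TPM held 0.225%. As few as 58 transcripts held 50% of TPM and 2076 held 90%. Counted in reads rather than per length, 140 transcripts held 50% and 3940 held 90%, a less steep concentration. The median length was 1260.5 bases at 1000 TPM or more, 2841.5 bases at 1 to 10 TPM and 2223 bases under 1 TPM. TPM divides by effective length, which itself raises short transcripts, so length and these classes are not independent.

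The breadth of expression differed between the times by less than the spread between animals. A mean of 13106 ± 192 transcripts reached 1 TPM in the 33 h animals and 13237 ± 145 in the 9 h animals (SD, n = 5 each, exact permutation test, two-sided p = 0.286). At least 10 estimated counts were found for 16116 ± 231 transcripts at 33 h and 16237 ± 276 at 9 h (SD, n = 5 each, exact permutation p = 0.5). The 10 transcripts with the highest mean share of counts took 17.4 ± 1.79% of the counts of a library at 33 h and 17.4 ± 0.310% at 9 h (SD, n = 5 each, exact permutation p = 0.937). Their share ran between 15.1% and 19.3% in the 33 h animals and between 16.9% and 17.6% in the 9 h animals, so the 9 h range lay inside the 33 h range. For the 500 transcripts highest by this measure the share was 65.7 ± 1.31% at 33 h and 65.1 ± 1.03% at 9 h (SD, n = 5 each, exact permutation p = 0.429). Over 7 library measures, totals included, every adjusted p of these exact permutation tests was 0.952.

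The same transcripts led at both times. Ranked by mean TPM, the top 10 of the 33 h animals and the top 10 of the 9 h animals shared 8 transcripts, the top 100 shared 96 and the top 500 shared 474. Single animals were only slightly less alike: 81 transcripts were among the 100 most abundant of each of the 10 livers, and 125 were among the 100 most abundant of at least 1 liver. Presence at 1 time alone was rare. Only 3 transcripts were at 0 in each 33 h animal and above 0 in each 9 h animal, 3 showed the opposite pattern, and the most abundant of these averaged 1.18 TPM.

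**Figure D1:**
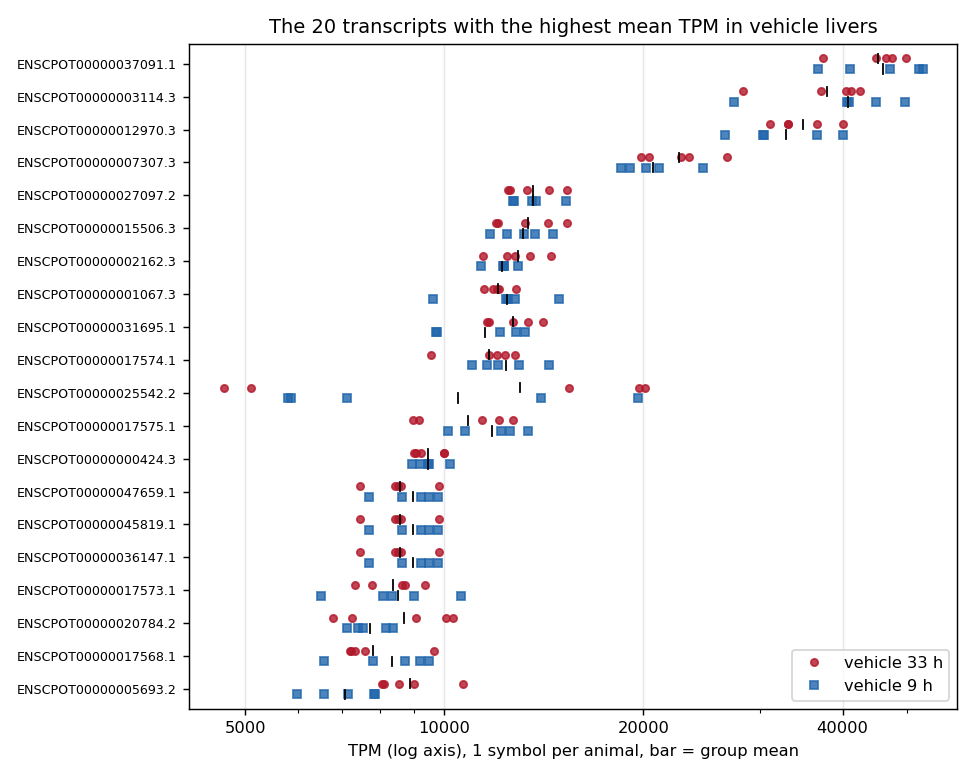
TPM on a log axis for the 20 transcripts with the highest mean over the 10 vehicle livers, 1 symbol per animal (circles 33 h, squares 9 h, bars group means). The symbols of the times overlap for each transcript shown except ENSCPOT00000005693.2, and ENSCPOT00000025542.2 is the only 1 of the 20 whose animals are several-fold apart.

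Rank by TPM and rank by counts parted for very short transcripts. The highest mean TPM belonged to ENSCPOT00000037091.1, a transcript of 93 bases with a mean effective length of 12.7 bases. It had 37324, 46512, 47510, 49887 and 44960 TPM in the 33 h livers, against 41115, 47158, 52199, 52839 and 36771 TPM in the 9 h livers. It took only 0.0480% of the counts, which placed it 262nd by counts, so its TPM rests on division by a few bases. ENSCPOT00000031695.1, 78 bases long, ranked ninth by TPM at 12687 ± 1078 TPM in the 33 h livers and 11540 ± 1703 TPM in the 9 h livers (SD, n = 5 each) while taking 0.0122% of the counts. ENSCPOT00000047659.1, ENSCPOT00000045819.1 and ENSCPOT00000036147.1, each 159 bases long, carried the same estimated counts in every library, 8566 ± 847 TPM apiece in the 33 h livers, against 8969.5 ± 822 TPM in the 9 h livers (SD, n = 5 each). Reads of such identical copies are divided evenly among them, so the 3 are 1 measurement. In all, 42 transcripts in 20 sets repeated the length and counts of another transcript, 9 of them at 10 TPM or more.

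Among transcripts of ordinary length the most abundant was ENSCPOT00000003114.3, 2055 bases long. It was first by counts, with 6.05% of all estimated counts, and had 37055, 28310, 41244, 42556 and 40525 TPM in the 33 h livers, against 49681, 40849, 40661, 27394 and 44928 TPM in the 9 h livers. The lowest and the highest animal both belonged to the 9 h group, and the fitted log2 fold change (33 h over 9 h) was -0.04 ± 0.17 (SE, edgeR quasi-likelihood test, adjusted p = 0.965). ENSCPOT00000012970.3, 396 bases long, averaged 34804 ± 3568 TPM at 33 h and 32823 ± 5452 TPM in 9 h livers (SD, n = 5 each). ENSCPOT00000007307.3, 1275 bases long and the third by counts, averaged 22646 ± 2771 TPM at 33 h and 20702 ± 2414 TPM in 9 h livers (SD, n = 5 each). In both, the animals of the times overlapped.

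ENSCPOT00000025542.2, 2267 bases long and second by counts with 2.02% of them, stood apart from the other abundant transcripts in its spread. The 33 h livers had 4646, 5105, 19712, 15426 and 20110 TPM and the 9 h livers had 5801, 7118, 14020, 19619 and 5872 TPM. Each time thus held animals at 7118 TPM or less and animals at 14020 TPM or more, with none between, at 3 high animals of 5 at 33 h and 2 of 5 at 9 h. Its log2 fold change of 0.40 ± 0.62 did not pass the test (SE, edgeR, adjusted p = 0.861), and the 4.33-fold range over the 10 livers was within times rather than between them. The steadiest of the 20 was ENSCPOT00000000424.3, 624 bases long, at 9457 ± 501 TPM in the 33 h livers and 9448.5 ± 471 TPM in the 9 h livers (SD, n = 5 each), its highest animal 1.14-fold above its lowest.

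ENSCPOT00000005693.2, 555 bases long, was the 1 transcript of the 20 whose groups did not overlap. It had 10679, 8540, 8984, 8058 and 8100 TPM at 33 h, against 7151, 5981, 7830, 6587 and 7871 TPM at 9 h. Every 33 h liver lay above every 9 h liver, but the log2 fold change of 0.41 ± 0.12 did not pass the threshold over all transcripts (SE, edgeR, adjusted p = 0.108). For the other transcripts of the 20 the log2 fold change lay between -0.05, in ENSCPOT00000017575.1, and 0.23, in ENSCPOT00000020784.2, leaving aside ENSCPOT00000025542.2.

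Most transcripts varied little between the vehicle animals. Spread was measured as the SD of log2(TPM + 1) around the mean of each time. Over the 13267 transcripts at 1 TPM or more its median was 0.186, and over the 5511 at 10 TPM or more it was 0.168. Of those 5511, 4500 (81.7%) had their highest of 10 animals under 2-fold above their lowest, and 48 (0.871%) had it 10-fold or more above. The SD was under 0.1 for 577 of them and over 1 for 45, with a whole range of 0.0265 to 2.53. The group means of the 33 h and 9 h livers lay within 1.1-fold of each other for 2971 (53.9%) of these transcripts and 2-fold or more apart for 32.

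Spread changed little across the abundance classes once transcripts were well counted. The median SD was 0.201 at 1 to 10 TPM, 0.168 at 10 to 100 TPM, 0.163 at 100 to 1000 TPM and 0.188 at 1000 TPM or more. Expressed as the fitted biological coefficient of variation, which removes counting noise, the median was 42.4% under 1 TPM, 19.5% at 1 to 10 TPM and between 13.0% and 15.4% above. It was fitted only for the 16282 transcripts that passed the count filter in the 10 vehicle livers. The value under 1 TPM thus covers only the better-counted part of that class. Within each time, the median SD at 10 to 100 TPM was 0.171 among the 33 h animals and 0.156 among the 9 h animals, and at 1000 TPM or more it was 0.179 at 33 h and 0.164 at 9 h. More than 50% of the transcripts were more spread at 33 h in each class from 1 TPM up, the share being 52.4% at 1 to 10 TPM and 58.5% at 1000 TPM or more. Under 1 TPM it was 48.7%. These shares describe 5 animals against 5 and carry no test, since the transcripts of 1 liver are not independent.

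**Figure D2:**
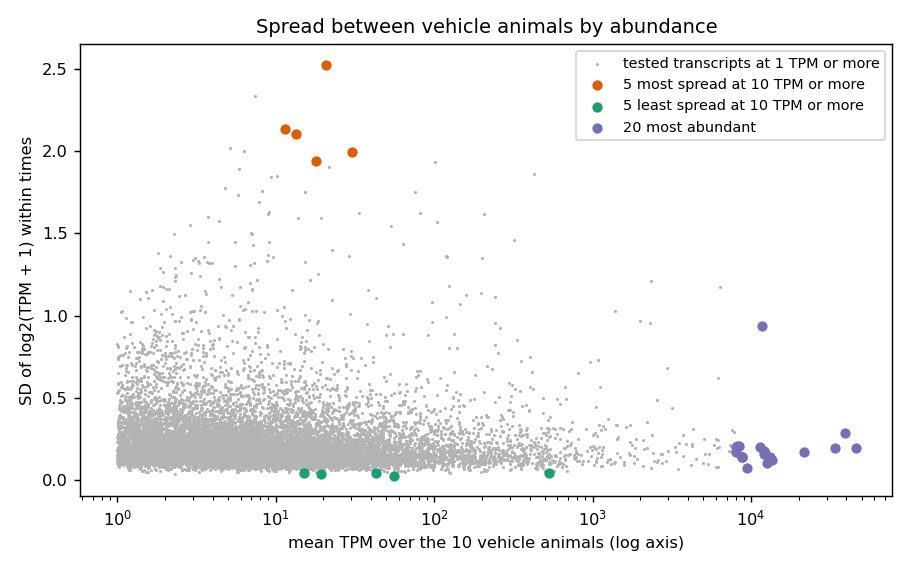
SD of log2(TPM + 1) around the mean of each time against mean TPM over the 10 vehicle livers (log axis), 1 point per tested transcript at 1 TPM or more. Most points lie in a low band at every level, the 5 most spread transcripts at 10 TPM or more reach SDs of 1.94 to 2.53, and 1 of the 20 most abundant, ENSCPOT00000025542.2, stands out of the band at 0.938.

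The steadiest and the most spread transcripts at 10 TPM or more show both ends of this range. ENSCPOT00000006574.3, 1754 bases long, had the lowest SD, with 54.3, 54.7, 53.1, 53.3 and 53.1 TPM in the 33 h livers, against 56.1, 57.0, 56.4, 58.8 and 58.9 TPM in the 9 h livers. These TPM groups did not overlap, yet after TMM scaling its log2 fold change was -0.04 ± 0.06 (SE, edgeR, adjusted p = 0.872). TPM carries no such scaling, and the TMM factors ran between 0.822 and 0.894 in the 33 h libraries and between 0.869 and 0.951 in the 9 h libraries. The same held for ENSCPOT00000006051.3, at 18.7 ± 0.507 TPM at 33 h and 20.04 ± 0.476 TPM at 9 h, and for ENSCPOT00000036499.1, at 14.4 ± 0.270 TPM at 33 h and 15.6 ± 0.597 TPM in 9 h livers (SD, n = 5 each). In these 3, TPM was lower in every 33 h liver while the fitted log2 fold changes were -0.04, -0.04 and -0.05. ENSCPOT00000015025.3, the most abundant of the 5, had 543 ± 18.8 TPM at 33 h and 525 ± 10.3 TPM at 9 h, and ENSCPOT00000039616.1 had 41.7 ± 1.11 TPM at 33 h and 43.7 ± 1.47 TPM in 9 h livers (SD, n = 5 each).

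At the other end, most of the 5 transcripts were high in some livers and nearly absent in others at both times. The exception was ENSCPOT00000012181.3, whose lowest 33 h liver still had 3.98 TPM. ENSCPOT00000033889.1, 483 bases long, had 1.39, 30.3, 46.6, 1.79 and 0.984 TPM in the 33 h livers, against 1.07, 1.06, 0.438, 49.9 and 74.2 TPM in the 9 h livers. It was thus above 30 TPM in 2 animals of each time and under 2 TPM in the other 6 of the 10. ENSCPOT00000040773.1, 1794 bases long, had 0.503, 27.2, 0, 0.155 and 24.7 TPM at 33 h, against 18.0, 0.641, 15.5, 26.2 and 21.7 TPM at 9 h, high in 2 livers at 33 h and in 4 at 9 h. ENSCPOT00000014643.3, 7284 bases long, had 20.1, 0.798, 0.564, 20.6 and 18.7 TPM at 33 h, against 20.8, 33.6, 0.658, 30.8 and 33.95 TPM at 9 h, with 3 high livers at 33 h and 4 at 9 h. The high animals were not the same ones: 33 h animal 2 was high for ENSCPOT00000033889.1 and ENSCPOT00000040773.1 and low for ENSCPOT00000014643.3. ENSCPOT00000003045.3 ran between 0.856 and 31.7 TPM at 33 h and between 0.0580 and 58.6 TPM at 9 h, and ENSCPOT00000012181.3 between 3.98 and 70.4 TPM at 33 h and between 0.616 and 119 TPM at 9 h. None of the 5 passed the test between times, the lowest edgeR adjusted p being 0.735.

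Set against this spread, livers of different times were slightly farther apart than livers of the same time. Distance between 2 livers was the root mean square difference of log2(TPM + 1) over the 13267 transcripts at 1 TPM or more. It averaged 0.461 over the 25 pairs of different times, between 0.375 and 0.518. Within times it averaged 0.433 over the 10 pairs at 33 h, between 0.389 and 0.491, and 0.435 over the 10 pairs at 9 h, between 0.382 and 0.499. The mean over pairs of different times exceeded that over pairs of the same time by 0.0269, 0.461 against 0.434, with an exact permutation p of 0.00794, the smallest that the arrangements of 5 against 5 animals allow (two-sided, n = 5 each, adjusted p = 0.0159 over 2 comparisons). The adjusted p was 0.0635 without 9 h animal 3 and 0.0794 without 9 h animal 5 (exact permutation), so the call was lost without either, with differences of 0.0248 and 0.0246. The ranges of the pair distances overlapped widely. These distances were taken on TPM without TMM scaling. With 1 minus the Spearman correlation, which depends on ranks alone, the exact permutation p was also 0.00794 (adjusted p = 0.0159). The mean distance within the 33 h group minus that within the 9 h group was -0.00173 (exact permutation p = 0.976, n = 5 each, adjusted p = 0.976). For description, mean distances within the treated groups at 33 h were 0.462 for the low dose and 0.470 for the high dose, and at 9 h they were 0.403 for the low dose and 0.397 for the high dose.

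**Figure D3:**
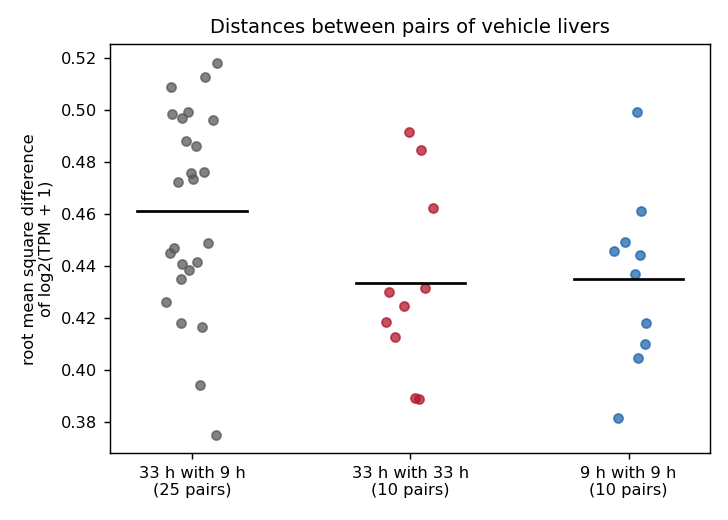
Root mean square difference of log2(TPM + 1) for each pair of vehicle livers, with the mean of each kind of pair as a bar. Pairs of different times average 0.461, pairs at 33 h 0.433 and pairs at 9 h 0.435, and the 3 clouds overlap.

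Not every animal followed its group. For 8 of 10 livers the nearest other liver was of the same time, and 9 of 10 were closer on average to their own time. The exception was 33 h animal 4, at a mean distance of 0.414 to the other 33 h livers and 0.408 to the 9 h livers, and its nearest liver was 9 h animal 1 at 0.375, the smallest distance of all 45 pairs. In a principal component analysis of the 10 livers the first component held 19.6% of the variance and the second 16.7%. On the first component 33 h animals 1, 2 and 5 lay at 22.7, 19.9 and 21.6, 33 h animals 3 and 4 lay at -2.66 and -2.19, and the 9 h animals lay between -20.1 and 0.640. The 33 h animals 3 and 4 were thus among the 9 h animals on that axis, and 33 h animal 3 also held the highest place on the second component, at 30.5.

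Between the times, 106 of 18239 tested transcripts changed at an adjusted p under 0.05 (edgeR quasi-likelihood test, Benjamini-Hochberg adjustment), which is 0.581%. Of these, 27 were higher at 33 h, 0.148% of those tested, and 79 were lower, 0.433%. Most changes were small: 10 of the 27 rises and 45 of the 79 falls were under 1.5-fold, and 9 rises and 13 falls were 2-fold or more. The median log2 fold change was 0.71 among the rises and -0.54 among the falls, and the whole range was -2.84 to 2.15. Over all tested transcripts the median was -0.01. In 83 of the 106 the animals of the times did not overlap in TPM (16 of 27 rises, 67 of 79 falls). Over all tested transcripts the share was 3.53%, a comparison the test itself partly fixes. Overlap was judged in TPM without the TMM scaling used for the calls, so its shares among rises and falls cannot be compared evenly. At an unadjusted p under 0.05, 2431 transcripts (13.3%) passed.

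The count differed between fits. The model took its spread from all 30 animals, treated ones included. An edgeR fit of the 10 vehicle livers alone, with its own filter and scaling, called 23 of 16282 transcripts (0.141%). Of these, 20 were among the 106, as 2 rises and 18 falls. DESeq2 called 470 on all 30 animals and 661 on the 10 vehicle livers alone. The count also turned on single livers: it was 258 without 33 h animal 4, 62, 57 and 39 without 33 h animals 1, 2 and 5, and 54 and 64 without 9 h animals 3 and 4. In all, 33 transcripts (5 rises, 28 falls) were called whichever of the 10 animals was left out. In 58 of the 106, 33 h animal 4 was the 33 h liver nearest to the 9 h livers. Among the 27 rises, 33 h animals 3 and 4 were the lowest pair of the 33 h livers in 17. The same shares over all tested transcripts are not given here, so these counts are not particular to the called ones. Over the whole transcriptome, 33 h animal 4 also had the smallest mean distance of the 33 h livers to the 9 h livers, 0.408.

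**Figure D4:**
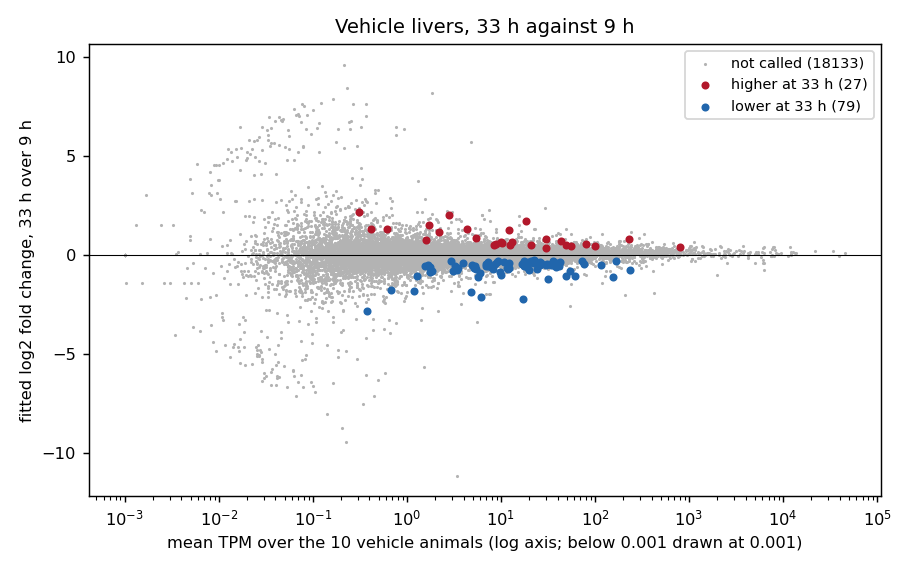
Fitted log2 fold change (33 h over 9 h) against mean TPM over the 10 vehicle livers (log axis), 1 point per tested transcript, with the 27 rises and 79 falls coloured. The median log2 fold change was -0.01 under 1 TPM, -0.04 at 1 to 10 TPM and 0.02 at 10 to 100 TPM. It was 0.14 at 100 to 1000 TPM and 0.08 at 1000 TPM or more. The called transcripts lie mostly between 1 and 100 TPM, and no transcript at 1000 TPM or more is coloured.

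Most of the changed transcripts lay between 1 and 100 TPM. Under 1 TPM, where the intervals given below were widest, 5 of 5011 tested were called (0.0998%). The calls were 41 of 7690 at 1 to 10 TPM (0.533%) and 54 of 4585 at 10 to 100 TPM (1.18%). Higher up they were 6 of 796 at 100 to 1000 TPM (0.754%) and 0 of 130 at 1000 TPM or more. The share over all tested transcripts was 0.581%, so 0 calls among 130 transcripts lie close to it. Among those 130, 13 passed an unadjusted p under 0.05 in edgeR, the lowest edgeR adjusted p was 0.0762, DESeq2 called 2 and limma voom called 1. Over all tested transcripts DESeq2 called 2.58% and limma voom 1.29%. Their fitted log2 fold changes ran between -1.001 and 0.65. The called transcripts had a median mean abundance of 12.2 TPM, against 3.82 TPM over those tested, and a median length of 2848.5 bases, against 2537 bases.

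Of the 10 rises named, 4 overlapped between the times. ENSCPOT00000002329.3, 8162 bases long, had 40.2, 40.1, 6.35, 10.6 and 43.1 TPM at 33 h, against 7.78, 5.05, 17.7, 6.17 and 8.33 TPM at 9 h. Only 33 h animals 1, 2 and 5 were above all the 9 h livers, and the log2 fold change of 1.68 ± 0.40 was barely past the threshold (SE, edgeR, adjusted p = 0.0498). ENSCPOT00000006606.3, 5482 bases long, had 21.98, 13.5, 11.9, 11.1 and 26.2 TPM at 33 h, against 7.70, 6.35, 11.6, 6.31 and 5.32 TPM at 9 h. It overlapped through a single liver, 9 h animal 3, and its log2 fold change was 1.24 ± 0.21 (SE, edgeR, adjusted p = 0.00381). ENSCPOT00000034276.1, 3014 bases long, had 38.7, 42.2, 32.7, 24.6 and 51.2 TPM at 33 h, against 20.8, 22.5, 26.8, 25.5 and 16.9 TPM at 9 h, with 33 h animal 4 inside the 9 h range (log2 fold change 0.81 ± 0.18, SE, edgeR adjusted p = 0.0346). ENSCPOT00000010149.3, 14124 bases long, likewise overlapped, at 2.96 ± 1.24 TPM at 33 h and 1.38 ± 0.285 TPM in 9 h livers (SD, n = 5 each).

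The other 6 rises named, the one second in size included, separated the groups in every animal. ENSCPOT00000022388.2, 2290 bases long and the most abundant of the 10 rises named, had 293, 241, 299, 249 and 338 TPM in the 33 h livers, against 217, 141, 183, 169 and 148 TPM in the 9 h livers. Its log2 fold change was 0.79 ± 0.16 (SE, edgeR, adjusted p = 0.0146). ENSCPOT00000014001.3, 1070 bases long, had 7.77, 7.66, 7.33, 6.09 and 5.72 TPM at 33 h, against 4.33, 3.08, 4.23, 4.09 and 4.39 TPM at 9 h, a log2 fold change of 0.85 ± 0.17 (SE, edgeR, adjusted p = 0.0146). It was also called whichever animal was left out, but not in the edgeR fit of the 10 vehicle livers alone (adjusted p = 0.0680). ENSCPOT00000033557.1, second in size at a log2 fold change of 1.29 ± 0.29 (SE, edgeR, adjusted p = 0.0368), averaged 6.14 ± 1.46 TPM at 33 h and 2.64 ± 0.728 TPM in 9 h livers (SD, n = 5 each). ENSCPOT00000043133.1 averaged 53.8 ± 10.6 TPM at 33 h and 34.1 ± 5.90 TPM at 9 h, and ENSCPOT00000033579.1 15.6 ± 1.93 TPM at 33 h and 10.4 ± 1.04 TPM in 9 h livers (SD, n = 5 each). For ENSCPOT00000043133.1 the groups nearly met, with the lowest 33 h liver at 41.6 TPM and the highest 9 h liver at 41.4 TPM. The largest rises of all were of rarer transcripts, under the 5 CPM set for naming, and are given here after their values were seen. ENSCPOT00000020875.2 averaged 0.504 TPM at 33 h and 0.116 TPM at 9 h, and ENSCPOT00000046050.1 averaged 4.47 TPM at 33 h and 1.12 TPM at 9 h, with log2 fold changes of 2.15 ± 0.42 and 2.03 ± 0.37 (SE, edgeR, adjusted p = 0.0139 and 0.00678, n = 5 each). Both separated the groups in every animal and were called whichever animal was left out. Neither was called in the edgeR fit of the 10 vehicle livers alone (adjusted p = 0.102 and 0.0760). Of the 10 named, ENSCPOT00000039513.1 was the least abundant, at 1.95 ± 0.354 TPM at 33 h and 1.22 ± 0.0837 TPM in 9 h livers (SD, n = 5 each).

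**Figure D5:**
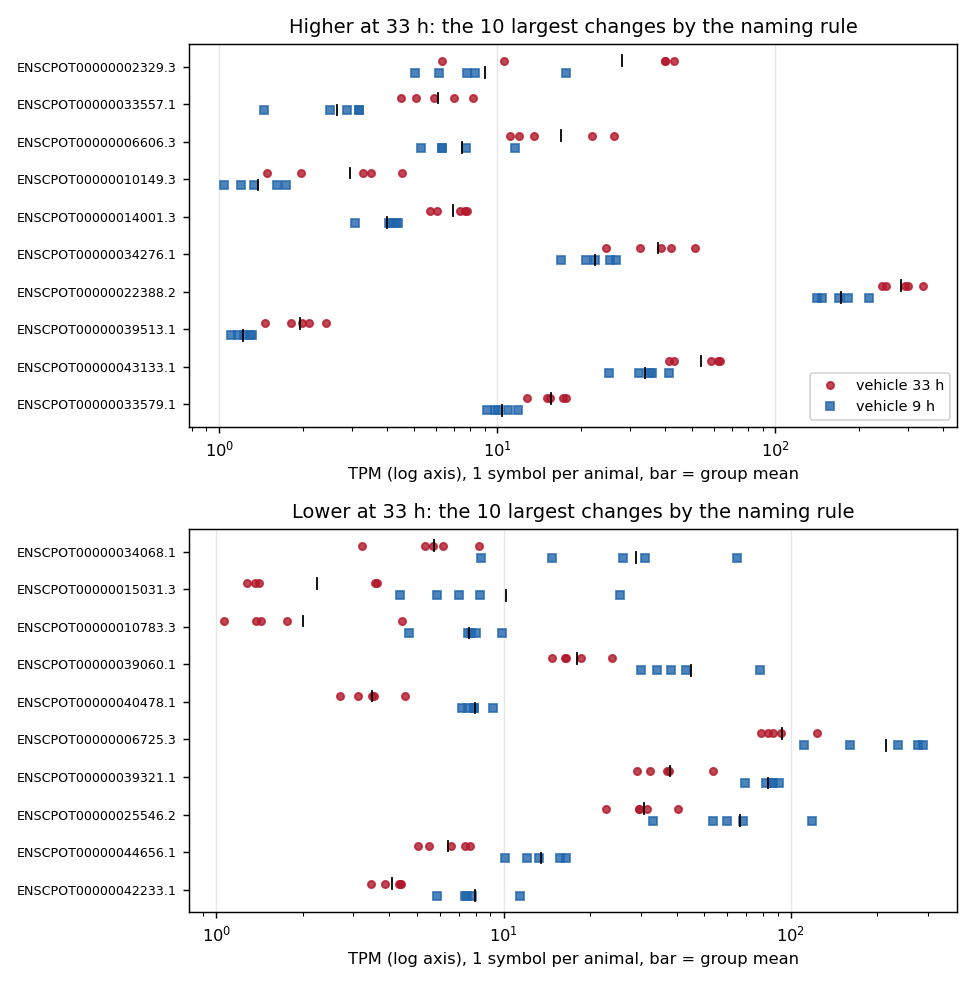
TPM on a log axis for the 10 largest rises (upper panel) and 10 largest falls (lower panel) between the times, 1 symbol per animal (circles 33 h, squares 9 h, bars group means). They are the largest among calls whose higher group averaged 5 CPM or more. Of the 10 rises, 4 overlap between the times, as do 2 of the 10 falls. Among the falls without overlap, ENSCPOT00000040478.1 has the lowest SD of log2(TPM + 1) within times, 0.174.

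Of the 10 falls named, 8 separated the animals of the times. ENSCPOT00000040478.1, 3416 bases long, had 3.49, 3.52, 2.69, 4.54 and 3.12 TPM in the 33 h livers, against 7.19, 7.49, 9.17, 7.86 and 7.89 TPM in the 9 h livers. The highest 33 h liver was well under the lowest 9 h liver, and the log2 fold change was -1.13 ± 0.14 (SE, edgeR, adjusted p = 0.000141). ENSCPOT00000039321.1, 1874 bases long, had 29.2, 32.3, 37.1, 53.6 and 37.7 TPM at 33 h, against 81.9, 69.2, 91.2, 86.7 and 86.2 TPM at 9 h, a log2 fold change of -1.06 ± 0.20 (SE, edgeR, adjusted p = 0.00769). Here 33 h animal 4 was again the 33 h liver closest to the 9 h livers. ENSCPOT00000044656.1, 3875 bases long, had 7.62, 5.52, 5.02, 7.33 and 6.55 TPM at 33 h, against 12.03, 10.1, 15.7, 13.3 and 16.5 TPM at 9 h, a log2 fold change of -1.02 ± 0.15 (SE, edgeR, adjusted p = 0.000942). These 3 passed the threshold under all 20 other settings of the fit, the only ones of the 20 named changes to do so.

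The 3 largest falls named did not overlap between the times, and the first and second of them had widely scattered 9 h livers. ENSCPOT00000034068.1, 1004 bases long, had 5.67, 6.14, 5.32, 8.19 and 3.21 TPM at 33 h, against 8.37, 26.1, 31.0, 14.7 and 64.8 TPM at 9 h. The highest 33 h liver and the lowest 9 h liver nearly met, and the log2 fold change was -2.25 ± 0.45 (SE, edgeR, adjusted p = 0.0163). ENSCPOT00000015031.3, 1611 bases long, had 1.41, 3.58, 1.28, 3.62 and 1.36 TPM at 33 h, against 5.85, 8.25, 4.36, 7.01 and 25.3 TPM at 9 h, a log2 fold change of -2.11 ± 0.45 (SE, edgeR, adjusted p = 0.0248). ENSCPOT00000010783.3, 4912 bases long, had 1.43, 1.06, 1.37, 4.41 and 1.76 TPM at 33 h, against 7.68, 9.89, 7.52, 8.04 and 4.68 TPM at 9 h, a log2 fold change of -1.86 ± 0.38 (SE, edgeR, adjusted p = 0.0180). In ENSCPOT00000034068.1 and ENSCPOT00000015031.3, 9 h animal 5 was the highest of all livers, and in ENSCPOT00000010783.3 it was the lowest of the 9 h livers.

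Of the other falls named, ENSCPOT00000039060.1 averaged 18.0 ± 3.55 TPM at 33 h and 44.7 ± 19.2 TPM at 9 h, and ENSCPOT00000042233.1 4.07 ± 0.408 TPM at 33 h and 7.97 ± 2.05 TPM in 9 h livers (SD, n = 5 each), both without overlap. ENSCPOT00000006725.3, 492 bases long and the most abundant of the 10 falls named, averaged 93.0 ± 17.9 TPM at 33 h and 214 ± 76.3 TPM at 9 h, and ENSCPOT00000025546.2 30.8 ± 6.29 TPM at 33 h and 66.6 ± 31.7 TPM in 9 h livers (SD, n = 5 each). Both overlapped through 9 h animal 1, the lowest of the 9 h livers in each.

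For most transcripts the data bounded the difference between times rather than merely failing to detect one. The 95% interval of the log2 fold change (limma voom with sample quality weights, all 30 animals) lay wholly within 2-fold in either direction for 12768 of 18239 transcripts, which is 70.0%. It lay wholly beyond 2-fold for 18. The share within 2-fold was 22.4% under 1 TPM, 83.2% at 1 to 10 TPM, 95.4% at 10 to 100 TPM, 94.7% at 100 to 1000 TPM and 93.1% at 1000 TPM or more, so the rest was mostly a matter of rare transcripts with wide intervals. The median interval reached 0.37 to either side on the log2 scale, 1.32 under 1 TPM and 0.22 at 10 to 100 TPM. The interval of ENSCPOT00000003114.3, first by counts, ran between -0.36 and 0.28, and that of ENSCPOT00000025542.2 between -0.94 and 1.41, so a 2-fold difference was not bounded for the spread one.

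The treated animals of the same study give a comparison between the same times in livers that share no animal with the vehicle groups, though they received thioacetamide. At the low dose, 21 of the 27 rises were also higher at 33 h than at 9 h, 11 of them past the threshold and 3 called the other way. Among all tested transcripts 13.6% were called higher at 33 h at that dose. Of the 79 falls, 55 were also lower at 33 h at the low dose, 24 of them past the threshold and 7 called the other way, where 12.7% of all tested transcripts were called lower. Over all tested transcripts, 55.5% had the same sign in the vehicle and the low dose animals.

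At the high dose the directions were mixed. There 9 of the 27 rises were higher at 33 h than at 9 h, 3 past the threshold and 9 called the other way, beside 23.9% of all tested transcripts called higher. Of the 79 falls, 39 were lower at 33 h, 17 past the threshold and 20 called the other way, beside 21.8% called lower. Over all tested transcripts, 45.9% had the same sign in vehicle and high dose animals. At both doses 3 rises and 13 falls were called in the vehicle direction, shares to be read beside the 7.78% and 7.44% of all tested transcripts called higher and lower at both doses.

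Single transcripts show these patterns. The difference between the vehicle and the treated time effects, tested as an interaction, passed the threshold for 11.3% of all tested transcripts under the low dose and 35.9% under the high one. That test contains the vehicle change by which the transcripts below were named. Its p-values for them are therefore not independent of the naming. ENSCPOT00000039321.1 was lower at 33 h under both doses and vehicle, with log2 fold changes between times of -0.91 under the low dose (edgeR adjusted p = 0.000970) and -1.20 under the high dose (edgeR adjusted p = 1.43e-05), beside -1.06 in the vehicle livers. ENSCPOT00000042233.1 was lower at 33 h by more in the treated animals, -2.31 at the low and -2.22 at the high dose against -0.90 in vehicle livers, and the difference itself passed the test (edgeR interaction, adjusted p = 0.000428 and 0.000102). ENSCPOT00000040478.1 did not show its vehicle fall in treated animals, its log2 fold changes between times being 0.09 under the low and 0.54 under the high dose, against -1.13 in vehicle livers (edgeR interaction, adjusted p = 0.000292 and 4.14e-07). ENSCPOT00000006606.3 was higher at 33 h in vehicle livers and lower at 33 h at both doses, by -0.77 and -1.28 (edgeR adjusted p = 0.00664 and 1.29e-05, edgeR interaction adjusted p = 9.47e-05 and 2.63e-07). ENSCPOT00000034068.1 averaged 137 ± 110 TPM under the low dose and 348 ± 75.2 TPM under the high dose at 33 h, against 5.71 ± 1.79 TPM in the 33 h vehicle livers (SD, n = 5 each). At 9 h it averaged 376 ± 54.8 TPM under the low dose and 378 ± 48.2 TPM under the high dose, against 29.0 ± 21.9 TPM in the 9 h vehicle livers (SD, n = 5 each). Each vehicle mean was below both treated means of its time.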

How the data were processed

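Paired reads of 150 bases came from stranded poly-A libraries, per the labels' protocols. The authors used kallisto 0.42.4, per the submitters' processing notes; the transcript set is not given in the sources used here. The deposited tables hold, per the file headers, each transcript's length, effective length, estimated count and TPM. The estimate apportions reads that match several similar transcripts, and this apportioning can itself shift. Replicates were taken as separate animals because the series design describes 30 of them; their numbers only name them, and no batch is given.

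Estimated counts were rounded and fitted in edgeR 4.0.16 (R 4.3.3), with TMM scaling, filterByExpr (minimum count 10, minimum total 15), 1 coefficient for each of 6 groups over 30 animals (24 residual degrees of freedom), robust quasi-likelihood tests and Benjamini-Hochberg adjustment over 18239 transcripts holding 99.97% to 99.98% of counts. SEs were obtained by dividing each log2 fold change by the root of its F statistic. Intervals came from limma voom 3.58.1; DESeq2 1.42.0 was an alternative. Library measures and distances, on log2(TPM + 1), were tested by exact permutation of animals, which were 5 against 5. The count model was tested on simulated counts.

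Named transcripts were the 20 with the highest mean TPM; the 10 largest rises and falls among calls whose higher group averaged 5 CPM or more; and, from 10 TPM up, the 5 with the lowest and the 5 with the highest SD. ENSCPOT00000034068.1 and the others set beside the treated animals were picked from these after their values were seen. The groups, lists and tests were chosen with earlier results of these data known, and the treated time comparison was added after seeing these data. The 32 gene lists written need gene names and were not run. The smallest library held 21352824 counts.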

Additional observations from a re-analysis of the deposited data

Results flagged for a closer look

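In each time group of 5 animals, the library measures and the named transcripts were searched for an animal whose gap to its nearest neighbour was more than 0.71 of the group's range. This held in 11 of 114 groups. Chance gives about 5% for unselected values, which is not the rate to expect here, since many of the transcripts were named for a large spread or change. Among the 33 h animals, animal 3 had the fewest transcripts at 1 TPM or more, 12770. Animal 5 was far above the others for the abundant ENSCPOT00000017568.1, at 9640.5 TPM, and animal 4 for the falling ENSCPOT00000010783.3, at 4.41 TPM, the value nearest to the 9 h livers. Animal 2 stood high for the steady ENSCPOT00000039616.1, at 43.6 TPM, and for the widely spread ENSCPOT00000003045.3, at 31.7 TPM.

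Among the 9 h animals, animal 3 was highest for the rising ENSCPOT00000002329.3, at 17.7 TPM, and animal 2 lowest for the rising ENSCPOT00000014001.3, at 3.08 TPM. Animal 5 was highest for the falling ENSCPOT00000015031.3, at 25.3 TPM, and ENSCPOT00000039060.1, at 78.1 TPM. Animal 2 was again highest for ENSCPOT00000003045.3, at 58.6 TPM, and animal 1 was highest for ENSCPOT00000012181.3, at 119 TPM.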

How the results depend on the processing

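The number of changed transcripts, 106, differed between tools and between sets of animals fitted. It was 470 with DESeq2 and 235 with limma voom on all 30 animals, and 23 with edgeR, 661 with DESeq2 and 21 with limma voom on the 10 vehicle livers alone, fits that also changed the filtered set and the scaling. Leaving out each animal in turn gave 39 to 258. It was 62, 57, 258 and 39 without 33 h animals 1, 2, 4 and 5, and 54 and 64 without 9 h animals 3 and 4; the cause was not tested. Median-of-ratios scaling gave 106, library totals 139, no count filter 78, a filter of 1 CPM in 5 libraries 116 and thinning to the smallest library 111. Rises made up 25.5% of the calls, 15.1% with library totals, where the median log2 fold change was -0.06, 38.7% with DESeq2, 39.1% with limma voom and 50.4% with DESeq2 on the 10 livers alone. All 106 had the same sign in every alternative that tested them. The 20 named changes stayed past the threshold in 298 of their 400 alternative values. ENSCPOT00000002329.3 and ENSCPOT00000010149.3 lost it in 12 of 20 each and ENSCPOT00000034276.1 in 10.

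The median SD of 0.186 was 0.220 with a pseudocount of 0.1 TPM, 0.123 with 5 TPM and 0.166 without a minimum level. Leaving out single animals gave 0.180 to 0.188 for it, 0.0224 to 0.0353 for the excess distance between times, and 12321 to 12622 transcripts bounded within 2-fold. The excess distance had adjusted p of 0.0635 and 0.0794 without 9 h animals 3 and 5; in its other alternatives, and for the library measures and the distances within groups in all of theirs, the side of the threshold was as reported. No paired analysis was possible because replicate numbers were given in accession order and pair no animals. Sums per gene were not run, since no table tied transcripts to genes.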
